A study of Mus musculus with 8 samples.

Results

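The Id genes Id1, Id2 and Id3 and the genes for transforming growth factor β1 (Tgfb1), its receptors (Tgfbr1 and Tgfbr2), Smad3 and the inhibitory SMADs (Smad6 and Smad7) were followed in BV-2 cells. These 9 genes, of 46078 genes counted, were listed by symbol because Id3 was strongly induced by LPS in these same libraries. The contrast of LPS with control therefore chose the set, and its values are given as a description.

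mRNA was sequenced from the immortalized mouse microglial line BV-2, with 4 groups of 2 libraries. Every group was kept for 4 h in medium without serum. Control cells then received no LPS, and the other groups received 100 ng/mL LPS (lipopolysaccharide from the outer membrane of Escherichia coli) for 20 h. AGE+LPS cells also received aged garlic extract at 0.5% (v/v), and FruArg+LPS cells received 3 mM FruArg, a conjugate of fructose and arginine found in that extract, each added 1 h ahead of LPS. The libraries called replicate 1 were sequenced in lane 3 and those called replicate 2 in lane 6. The column headers of replicate 2 also carry a numeric tag that those of replicate 1 lack. Lane and tag follow the same split and cannot be told apart. The design text calls the replicates biological, but no source says that they came from separate cultures, so p-values measure only the spread between these libraries, which may be technical. The sources also differ on RNA extraction, with an RNeasy kit in the labels and TRIzol in the methods.

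Library totals, with replicate 1 before replicate 2, came to 2707500 and 8995052 counts for control, 8720784 and 12069807 for LPS, 6795464 and 6669072 for AGE+LPS, and 4692715 and 5822113 for FruArg+LPS. The floor for a gene with no count was set at 3 counts, which corresponds to between 0.249 and 1.11 CPM (counts scaled to a common library total), depending on the library. The sources name no molecular identifiers, and floors and counting intervals therefore cover counting error only. Mitochondrial genes held between 2.17% and 4.19% of the counts of a library. Levels are CPM normalized by the trimmed mean of M-values (TMM) over the 8 libraries, and the mean ± SD is given for n = 2.

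TGF-β ligands bind a type II receptor, which activates a type I receptor, and the type I receptor phosphorylates SMAD proteins that move to the nucleus with SMAD4 and regulate transcription. Inhibitory SMADs are induced by the same signaling and dampen it at the receptor, while Id proteins are helix-loop-helix proteins without a DNA-binding region that hold E proteins and related factors off DNA. In the brain, TGF-β1 maintains the homeostatic gene program of microglia, and bone morphogenetic proteins (BMPs) are classical inducers of Id genes.

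The labels were checked against marker genes fixed as lists. All 11 microglia and macrophage markers were detected, with a summed level between 3392 and 5497 CPM, and Adgre1 was the most abundant. The 6 LPS response markers summed to 34.9 and 50.3 CPM in control and to between 6424 and 10150 CPM in the LPS-exposed libraries, with Saa3 the most abundant. Several genes of homeostatic microglia in tissue were at or near 0 in BV-2 cells: Sall1 had 0 counts, Siglech had 1 count in all, and Tmem119 and Olfml3 had 14 and 15 counts over the 8 libraries.

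Defining markers of other brain cells were at or near 0. The 4 astrocyte markers summed to at most 2.57 CPM, with Slc1a2 the most abundant and Aqp4 and Aldh1l1 at 0. Of the 4 neuron markers, Rbfox3, Snap25 and Syt1 were at 0, and Map2 was the most abundant in a sum of at most 0.380 CPM. The oligodendrocyte marker Mog was at 0, and the 5 fibroblast markers summed to at most 0.276 CPM, from 1 count each of Col1a2, Dcn and Pdgfra in LPS replicate 2. Of the 4 endothelial markers, Cldn5 was at 0 and Pecam1 and Cdh5 were near 0, whereas Kdr stood at 77.2 and 77.0 CPM in control and at 9.25 and 7.26 CPM in LPS. Those 4 markers summed to 77.8 and 77.6 CPM in control, 10.2 and 8.82 CPM in LPS, 17.1 and 18.9 CPM in AGE+LPS and 6.19 and 5.32 CPM in FruArg+LPS, nearly all of it Kdr, and the part of Kdr in the results was not tested. The 4 T cell markers summed to at most 0.143 CPM except in FruArg+LPS replicate 1, at 2.52 CPM from 6 counts of Trac and 5 of Cd3d, with Cd3e and Cd3g at 0.

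Tgfb1 encodes the ligand (ENSMUSG00000002603, chr7:25687002-25705077, plus strand, GRCm38). Its level was 16.2 and 18.4 CPM in control, 14.9 and 10.6 CPM in LPS, 17.8 and 16.2 CPM in AGE+LPS, and 24.1 and 20.3 CPM in FruArg+LPS. The LPS libraries were the lowest and the FruArg+LPS libraries the highest, while the control and AGE+LPS libraries overlapped. As the cells were measured in bulk, fewer cells that express a gene and less RNA per cell cannot be told apart.

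Tgfbr1, the type I receptor that carries the kinase acting on SMAD proteins, lies at chr4:47353222-47414931 (plus strand, ENSMUSG00000007613). It stood at 75.6 and 77.6 CPM in control, 54.9 and 62.7 CPM in LPS, 56.5 and 70.7 CPM in AGE+LPS, and 52.5 and 67.7 CPM in FruArg+LPS. Both control libraries were above all LPS-exposed libraries, and the 3 LPS-exposed groups overlapped. Within each LPS-exposed group the replicate 2 library had the higher value. Tgfbr2, the type II receptor that binds the ligand (ENSMUSG00000032440, chr9:116084293-116175360, minus strand), was at 113 and 124 CPM in control, 36.2 and 30.4 CPM in LPS, 44.9 and 35.9 CPM in AGE+LPS, and 63.0 and 40.3 CPM in FruArg+LPS. Its control libraries again lay above the other 6, with a group mean of 118 ± 7.94 CPM against 33.3 ± 4.12 CPM in LPS, 40.4 ± 6.39 CPM in AGE+LPS and 51.7 ± 16.1 CPM in FruArg+LPS. The AGE+LPS libraries overlapped with those of LPS and of FruArg+LPS, whereas both FruArg+LPS libraries were above both LPS libraries.

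Smad3 is the receptor-regulated SMAD of the TGF-β branch (ENSMUSG00000032402, chr9:63646767-63757994, minus strand). Its counts were low: 26 and 53 in control, 14 and 6 in LPS, 12 and 10 in AGE+LPS, and 0 and 5 in FruArg+LPS. On the CPM scale these were 8.09 and 4.96 in control, 1.75 and 0.551 in LPS, 1.71 and 1.51 in AGE+LPS, and 0 and 0.95 in FruArg+LPS. Control libraries were the highest, the LPS libraries overlapped with both co-treated groups, and both FruArg+LPS libraries were below both AGE+LPS libraries. The 0 in FruArg+LPS replicate 1 allows up to 3 counts, or 0.639 CPM before TMM normalization.

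Smad6, an inhibitory SMAD that acts mainly on the BMP branch (ENSMUSG00000036867, chr9:63953076-64022059, minus strand), had between 5 and 16 counts in each library. Its level was 1.87 and 1.31 CPM in control, 2.00 and 0.460 CPM in LPS, 2.28 and 1.21 CPM in AGE+LPS, and 2.06 and 2.28 CPM in FruArg+LPS. In counts all groups overlapped, and in CPM FruArg+LPS lay above control and LPS by less than these counts can resolve, so depth limits what can be said of Smad6. Smad7, the inhibitory SMAD that blocks the type I receptor (ENSMUSG00000025880, chr18:75367529-75395935, plus strand), had 5 and 29 counts in control, 33 and 29 in LPS, 78 and 40 in AGE+LPS, and 42 and 48 in FruArg+LPS. In CPM these were 1.56 and 2.72 in control, 4.12 and 2.67 in LPS, 11.1 and 6.06 in AGE+LPS, and 9.63 and 9.12 in FruArg+LPS. All 4 co-treated libraries were above all LPS and control libraries, the AGE+LPS libraries enclosed those of FruArg+LPS, and control overlapped with LPS. The group means were 2.14 ± 0.820 CPM in control, 3.39 ± 1.03 CPM in LPS, 8.59 ± 3.58 CPM in AGE+LPS and 9.37 ± 0.356 CPM in FruArg+LPS.

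Id1 (ENSMUSG00000042745, chr2:152736251-152737410, plus strand) was not detected beyond 1 count, in control replicate 1, over the 8 libraries, and Id4, the remaining gene of the family, had 0 counts. No fold change is given for Id1, since every library was under the floor.

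Id2 (ENSMUSG00000020644, chr12:25093799-25097140, minus strand) was well covered in every library. It stood at 44.5 and 50.8 CPM in control, 51.9 and 57.9 CPM in LPS, 92.9 and 94.2 CPM in AGE+LPS, and 85.5 and 71.5 CPM in FruArg+LPS. On the TMM scale the 4 groups did not overlap, in the order control, LPS, FruArg+LPS and AGE+LPS, and the means were 47.7 ± 4.48, 54.9 ± 4.27, 78.5 ± 9.92 and 93.5 ± 0.961 CPM in that order. The order of control and LPS depends on that scale, since scaling by library size alone gave a log2 fold change of -0.19. The share of all genes whose groups separate in this way was not counted, for Id2 or the other members.

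Id3 (ENSMUSG00000007872, chr4:136143497-136145755, plus strand) had 0 and 1 counts in control, 170 and 78 in LPS, 216 and 104 in AGE+LPS, and 184 and 70 in FruArg+LPS. The levels were 0 and 0.0936 CPM in control, 21.2 and 7.17 CPM in LPS, 30.8 and 15.8 CPM in AGE+LPS, and 42.2 and 13.3 CPM in FruArg+LPS. Control libraries were at or near 0, and the LPS-exposed groups overlapped with each other. In each LPS-exposed group the replicate 1 library, from lane 3, was above the replicate 2 library, from lane 6. The part of the lane, or of anything else that follows the same split, was not tested. The SD of Id3 was accordingly wide, with 14.2 ± 9.95 CPM in LPS, 23.3 ± 10.6 CPM in AGE+LPS and 27.7 ± 20.4 CPM in FruArg+LPS.

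**Figure D1:**
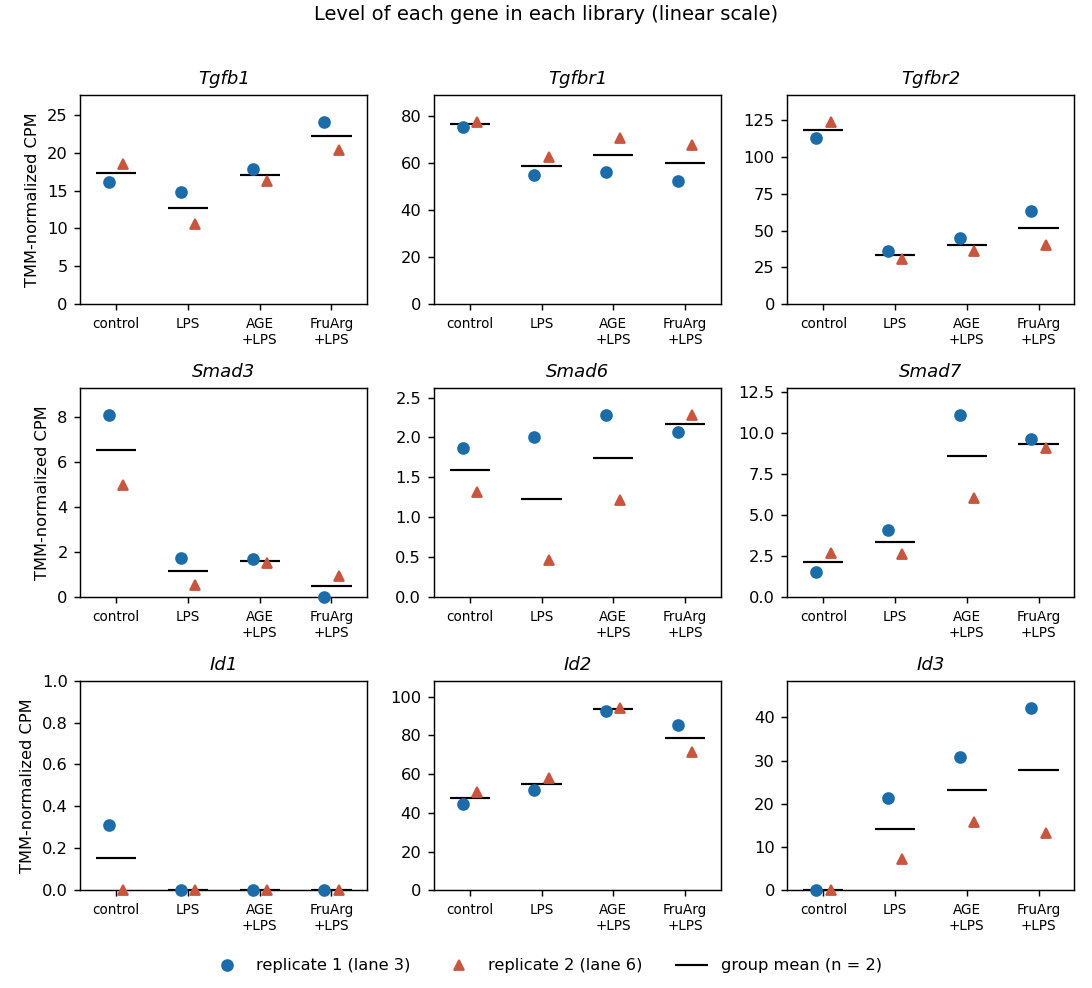
TMM-normalized CPM of each of the 9 genes (linear scale, starting at 0) in the 8 libraries, with replicate 1 (lane 3) as circles, replicate 2 (lane 6) as triangles and group means (n = 2) as lines. Id3 was at or near 0 in control and between 7.17 and 42.2 CPM in the LPS-exposed libraries, Tgfbr2 was highest in control, and Smad7 was highest in the 4 co-treated libraries.

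LPS against control is the contrast by which the set was chosen, and it asks how the members stood in activated cells. Id3 went from 1 count in both control libraries together to 248 counts in both LPS libraries. Divided by the pooled TMM-scaled library totals, these counts gave a ratio of 182 (95% exact counting interval 32.4 to 7236). It is a ratio of pooled counts and not of the mean CPM given above. The Id3 ratio was 99.6 without LPS replicate 1 and 295 without LPS replicate 2, and without control replicate 2, which holds the 1 control count, none can be given. The receptor gene Tgfbr2 was lower in LPS, with a log2 fold change of -1.79 (SE 0.21, n = 2 per group), and Smad3 was lower with -2.46 (SE 0.60). Leaving out LPS replicate 1 put Smad3 at -3.42 and leaving out LPS replicate 2 put it at -1.78. The other members moved less: Tgfb1 had a log2 fold change of -0.42 (SE 0.28), Tgfbr1 of -0.35 (SE 0.20) and Smad7 of 0.59 (SE 0.50). Id2 had 0.23 (SE 0.21) and turned to -0.19 when libraries were scaled by size alone, and Smad6 had -0.32 (SE 0.74) and turned to 0.46 without LPS replicate 2 and stood at -1.64 without LPS replicate 1. Smad7 stood at 1.13 without control replicate 2.

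A gene was called where the quasi-likelihood F-test of edgeR gave an adjusted p below 0.05 and the log2 fold change reached 1 in either direction. By that rule 3 of the 8 members tested were called, with Id3 up and Smad3 and Tgfbr2 down, beside 2918 of all 12888 genes tested (22.6%), 1485 of them up (11.5%) and 1433 down (11.1%). The members were selected on this contrast, so nothing is read from their share. A filter of at least 10 counts in every library left 1 member called, since it removed Id3 and Smad3 from the test. Id3 had passed the main filter through LPS and Smad3 through control, so that their directions were set by the filter. Scaling by library size put 932 genes up and 2666 down, with the median of all genes at -0.40, so directions are relative to TMM.

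Co-treatment with AGE asks how the extract altered these genes in LPS-exposed cells. This comparison shares its LPS libraries with the contrast that chose Id3 and with the FruArg comparison. The largest difference among the members was that of Smad7, with a log2 fold change of 1.35 (SE 0.44, n = 2 per group), higher in 2 of 2 lanes, but it did not pass edgeR without a block (adjusted p = 0.179). Id2 was also higher in 2 of 2 lanes, with a log2 fold change of 0.77 (SE 0.20) and an adjusted p of 0.116. Id3 had 0.73 (SE 0.54, adjusted p = 0.550), higher by 1.45 times in lane 3 and 2.20 times in lane 6. The values of Smad6, Smad3, Tgfb1, Tgfbr2 and Tgfbr1 were 0.57, 0.54, 0.43, 0.28 and 0.12, each smaller than 2 times its SE. Without LPS replicate 2, Smad6 turned to -0.19 and Smad3 to -0.12, and without AGE+LPS replicate 2, Tgfbr1 turned to -0.05.

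Without a block edgeR called 0 of the 8 members tested in AGE+LPS against LPS, beside 98 of 12317 genes (0.796%). At an unadjusted p below 0.05 there were 2 members, Id2 and Smad7, and 2194 genes, and DESeq2 called 0 members and 529 genes. The 98 genes split into 36 up and 62 down, and into 73 up and 61 down with scaling by library size, which moved the median of all genes to 0.15. The count of genes was 646 and 441 without LPS replicates 1 and 2, and 349 and 619 without AGE+LPS replicates 1 and 2. Among the members, Id3 was called without LPS replicate 1 (log2 fold change 1.70, adjusted p = 0.0081, over the alternatives 1.3e-04 to 0.960) and stood at 0.13 without LPS replicate 2 and at 0.16 without AGE+LPS replicate 1. Smad7 was called without AGE+LPS replicate 2 (1.73, adjusted p = 0.030) and stood at 0.85 without AGE+LPS replicate 1.

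When the replicate number served as a block, so that groups were compared within a lane, edgeR called 1 of the 8 members in this comparison. In every pairwise fit the block leaves few residual degrees of freedom, so its p-values rest largely on spread borrowed across genes. Smad7 rose by 1.32 on the log2 scale (SE 0.29, adjusted p = 8.1e-05, over the alternatives 8.1e-05 to 0.665). The same fit called 1199 of 12317 genes (9.73%), 605 up (4.91%) and 594 down (4.82%). Whatever the fold, 4 of the 8 members had an adjusted p below 0.05 with the block, beside 4961 genes (40.3%). Besides Smad7 these were, each higher in 2 of 2 lanes, Id2 (log2 fold change 0.77, SE 0.11, adjusted p = 2.2e-09, over the alternatives to 0.353), Id3 (0.78, SE 0.18, adjusted p = 1.3e-04, to 0.960) and Tgfb1 (0.44, SE 0.18, adjusted p = 0.049, to 0.925). With the block and the 4 groups together, edgeR gave weaker adjusted p-values. They were 0.026 for Smad7, 0.0027 for Id2, 0.030 for Id3 and 0.210 for Tgfb1. Both shares of the members lay near those of all genes, so they are no result about the members as a set.

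FruArg asks the same of a compound of the extract, and again against the LPS libraries of the contrast that chose Id3. Smad7 had the largest log2 fold change, 1.48 (SE 0.47, n = 2 per group), and was higher in 2 of 2 lanes, with an adjusted p of 0.286 by edgeR without a block. Tgfb1 was higher by 1.62 times in lane 3 and 1.92 times in lane 6, with a log2 fold change of 0.81 (SE 0.33) and an adjusted p of 0.360. Id3 had 0.98 (SE 0.60, adjusted p = 0.488) from 1.98 times in lane 3 and 1.86 times in lane 6. For Tgfbr2 the value was 0.64 (SE 0.30), for Id2 0.52 (SE 0.25), for Smad6 0.87 (SE 0.84) and for Tgfbr1 0.04 (SE 0.26). Smad6 stood at 2.19 without LPS replicate 1 and at 0.12 without LPS replicate 2. Tgfbr1 turned to -0.07 without LPS replicate 1 and to -0.16 without FruArg+LPS replicate 2. Smad3 and Id1 did not pass the filter on low counts. In the 4 groups fitted together by edgeR, Smad3 had -1.11 (SE 1.03, adjusted p = 0.574, over the alternatives 0.111 to 1.00), lower in lane 3 and higher in lane 6. In the pairwise fit without FruArg+LPS replicate 1, where Smad3 passed the filter, it stood at -0.21, while without FruArg+LPS replicate 2 the group rests on 0 counts and no fold is given.

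Of the 7 members tested in FruArg+LPS against LPS, edgeR without a block called 0, beside 0 of 12071 genes (0%). Unadjusted p was below 0.05 for 2 members, Smad7 and Tgfb1, and for 1543 genes, and DESeq2 called 0 members, giving no adjusted p for Smad7, and 194 genes. Leaving out 1 library moved the count of genes to 198 without LPS replicate 1, 5 without LPS replicate 2, 57 without FruArg+LPS replicate 1 and 1549 without FruArg+LPS replicate 2. Id3 depended on the library left out: it was called without FruArg+LPS replicate 2 (log2 fold change 1.58, adjusted p = 0.0028, over the alternatives 0.0028 to 1.00), turned to -0.07 without FruArg+LPS replicate 1, and stood at 1.93 without LPS replicate 1 and 0.38 without LPS replicate 2.

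With the replicate block, 1 of the 7 members was called against LPS in FruArg+LPS, and it was again Smad7, which rose by 1.5 (SE 0.46, adjusted p = 0.015, over the alternatives 0.015 to 1.00 in edgeR). All genes gave 766 calls of 12071 (6.35%), 346 up (2.87%) and 420 down (3.48%). At an adjusted p below 0.05 of any fold there were 5 of the 7 members, beside 2123 genes (17.6%). The others, each higher in 2 of 2 lanes, were Id3 (log2 fold change 0.95, SE 0.27, adjusted p = 0.0087), Tgfbr2 (0.61, SE 0.20, adjusted p = 0.026), Tgfb1 (0.83, SE 0.28, adjusted p = 0.030) and Id2 (0.52, SE 0.19, adjusted p = 0.047). The 1 call lay near the share of all genes, whereas 5 of 7 past the adjusted p was more than that share. As the LPS libraries of this comparison had served to choose Id3, nothing is read from that excess. Over the alternatives the adjusted p of the last 4 genes ran from 0.0028, 0.026, 0.022 and 0.031, in that order, up to 1.00 for each.

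The co-treatments were also set against each other, in libraries that the rule did not use. Without a block edgeR called 0 of the 7 members tested in FruArg+LPS against AGE+LPS, beside 0 of 11915 genes (0%), and with it again 0 of the 7, beside 107 genes (0.898%). No member but 668 genes had an unadjusted p below 0.05 without the block, and DESeq2 called 0 members and 0 genes. The log2 fold changes were 0.38 for Tgfb1 (SE 0.30), 0.35 for Tgfbr2 (SE 0.31), 0.30 for Smad6 (SE 0.73), 0.24 for Id3 (SE 0.50) and 0.12 for Smad7 (SE 0.44), and -0.26 for Id2 (SE 0.24) and -0.09 for Tgfbr1 (SE 0.27). Smad3 did not pass the filter here either, and the 4 groups fitted together by edgeR gave -1.63 (SE 1.01, adjusted p = 0.641, over the alternatives 0.147 to 1.00), lower in 2 of 2 lanes. The pairwise fit without FruArg+LPS replicate 1 tested Smad3 and gave -0.75, with 0 counts in the group without FruArg+LPS replicate 2. Smad7 turned to -0.03 with scaling by library size, which moved the median of all genes to -0.15. Id3 turned to -0.17 without AGE+LPS replicate 2 and to -0.80 without FruArg+LPS replicate 1. Without AGE+LPS replicate 2, Smad6 turned to -0.08, Smad7 to -0.26 and Tgfbr1 to 0.08. Without FruArg+LPS replicate 1, Tgfbr1 turned to 0.09 and Tgfbr2 to -0.00085. The count of genes was 51 and 10 without AGE+LPS replicates 1 and 2, and 10 and 233 without FruArg+LPS replicates 1 and 2. These p-values do not show that the co-treatments acted alike.

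**Figure D2:**
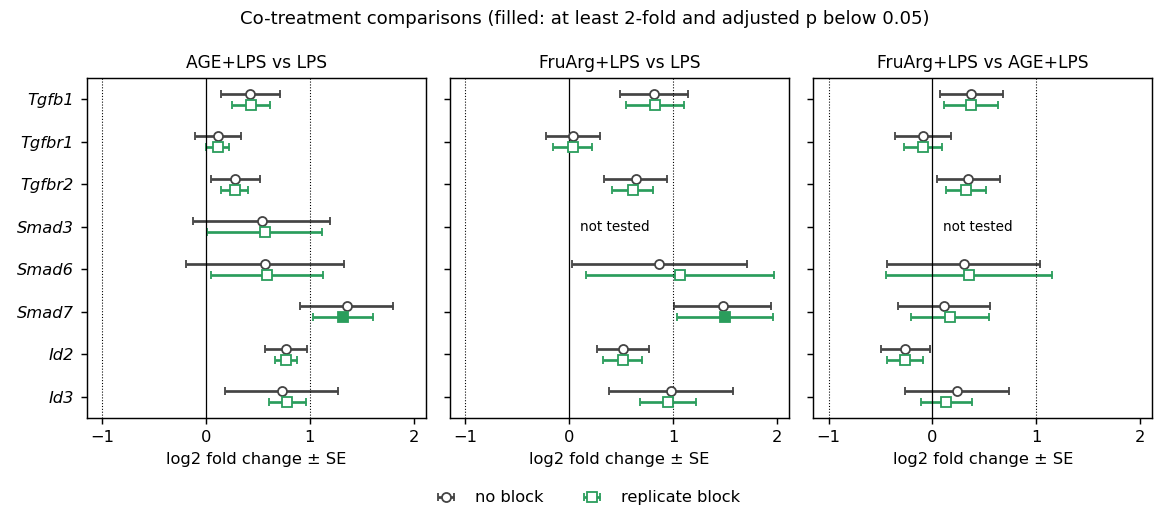
Log2 fold change ± SE (edgeR, n = 2 per group) of the members in the 3 comparisons between LPS-exposed groups, without a block (circles) and with the replicate block (squares), with filled symbols for called genes and dotted lines at -1 and 1. Smad7 was called with the block, at 1.32 for AGE+LPS and 1.5 for FruArg+LPS against LPS, and no member was called between the co-treatments. There the direction of Smad7 flips with scaling by library size, which moved the median of all genes from -0.02 to -0.15.

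Against control, whose libraries are those of the contrast that chose Id3, both co-treated groups are given as a description. By the same ratio of pooled counts, Id3 stood at 327 times control in AGE+LPS (95% exact counting interval 58.2 to 12940) and at 367 times in FruArg+LPS (65.2 to 14536). For Id3 in FruArg+LPS the ratio was 185 without FruArg+LPS replicate 1 and 586 without FruArg+LPS replicate 2, and the control again rests on 1 count in control replicate 2. Smad7 had a log2 fold change of 1.91 (SE 0.47) in AGE+LPS and 2.06 (SE 0.48) in FruArg+LPS, beside the 0.59 of LPS alone. Id2 had 0.98 (SE 0.20) and 0.74 (SE 0.21), in the same order. Tgfbr2 was below control in each, at -1.53 (SE 0.21) and -1.17 (SE 0.25), as was Smad3 at -1.93 (SE 0.48) and -3.57 (SE 0.94). In FruArg+LPS, Smad3 stood at -2.65 without FruArg+LPS replicate 1 and rests on 0 counts without FruArg+LPS replicate 2, where Tgfbr2 stood at -0.89. Smad3, with 0 and 5 counts in FruArg+LPS, passed the filter through control there, so that its direction was set by the filter. Id3 passed it through the co-treated group in both comparisons, with the same limit. Tgfb1 lay close to control, with -0.02 (SE 0.25) in AGE+LPS and 0.37 (SE 0.26) in FruArg+LPS, which turned to -0.03 with scaling by library size. That scaling moved the median of all genes in FruArg+LPS against control from 0.002 to -0.40. The Tgfb1 value in AGE+LPS turned to 0.08 without control replicate 2 and 0.06 without AGE+LPS replicate 2. The remaining members were Tgfbr1 at -0.25 (SE 0.20) and -0.32 (SE 0.21) and Smad6 at 0.24 (SE 0.59) and 0.54 (SE 0.69). In AGE+LPS, Smad6 turned to -0.003 with scaling by library size, -0.08 without control replicate 2 and -0.29 without AGE+LPS replicate 1, and Id2 stood at 1.08 without control replicate 2. Library size scaling moved the median of all genes in AGE+LPS against control from 0.01 to -0.24.

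To compare levels between genes, CPM were divided by the exon length of each gene in kilobases. In control, Id2 had the highest level per kilobase, 19.6 CPM, followed by Tgfbr2 at 14.4, Tgfbr1 at 11.7, Tgfb1 at 3.43 and Smad3 at 1.18 CPM per kilobase. Smad6 (0.496) and Smad7 (0.472) overlapped, as did Id1 and Id3 at the bottom. In LPS the order of the upper genes was Id2 (22.5), Tgfbr1 (9.0), Id3 (7.93), Tgfbr2 (4.07) and Tgfb1 (2.52), where Tgfbr1 overlapped with Id3 and Id3 with Tgfbr2. Below them Smad7 overlapped with Smad6 and Smad6 with Smad3.

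The co-treated groups ordered the members alike at the top. In AGE+LPS, Id2 (38.4 CPM per kilobase) stood above Id3 (13) and Tgfbr1 (9.74), which overlapped, and then came Tgfbr2 (4.94), Tgfb1 (3.38), Smad7 (1.90), Smad6 (0.545) and Smad3 (0.291). FruArg+LPS had Id2 (32.2), Id3 (15.5) and Tgfbr1 (9.19), with these last overlapping, then Tgfbr2 (6.31), which overlapped with Id3 as well, Tgfb1 (4.40), Smad7 (2.07), Smad6 (0.678) and Smad3 (0.0857), the last overlapping with Id1. Id3 was thus among the lowest members in control and among the upper members in each LPS-exposed group.

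Other genes of the pathway were taken from 9 lists with 103 genes, of which 102 were matched and 53 tested in LPS against control. Of these 53, 27 were called, 12 up and 15 down, beside 22.6% of all genes tested, and scaling by library size called 31, with 11 up and 20 down, beside 932 up and 2666 down of all genes. The median log2 fold change of the 53 was -0.11, beside 0.02 over all genes tested. Since the members were selected on this contrast, the lists are counted as a description, and nothing is read from their shares. With at least 10 counts required in every library, 44 were tested and 20 called, 9 up and 11 down, since genes that pass only through the group where they are high drop out.

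Among ligands, 2 of the 2 tested of 15 listed were called up, with a median of 2.17. Gdf15, a stress-induced ligand, went from 36.7 and 34.0 CPM in control to 154 and 86.9 CPM in LPS (log2 fold change 1.81, SE 0.29). The other was Nodal, a developmental ligand with at most 22 counts in a library, named after its values were seen, which passed the filter through LPS, so that its direction was set by the filter, and was not called by DESeq2 or without control replicate 1, control replicate 2 or LPS replicate 1, each of which left 1 call. Of 8 receptors and co-receptors tested of 12 listed, 1 was called, and the median was -0.32. This was Bambi, a pseudoreceptor without kinase activity that dampens TGF-β signaling, at 44.5 and 53.9 CPM in control and 5.5 and 3.03 CPM in LPS (log2 fold change -3.52, SE 0.32). Scaling by library size called 4 receptors, all down, and 2 were called with the replicate block and without control replicate 2, LPS replicate 1 or LPS replicate 2.

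Of the other receptor-regulated SMADs and the common Smad4, edgeR called 0 of 4 tested of 5 listed, with a median of 0.14, while 2, Smad5 (log2 fold change -0.90) and Smad4 (0.91), both named after their values were seen, had an unadjusted and an adjusted p below 0.05 at less than 2-fold. DESeq2 called 0, scaling by library size 1 (Smad5), and leaving out control replicate 2 or LPS replicate 1 gave 1 and 2 calls. For latency and activation of TGF-β, 2 of 4 tested of 11 listed were called, with a median of 0.42: Nrros, which anchors latent TGF-β1 on microglia, was down from 320 and 294 CPM to 82.4 and 52.8 CPM (log2 fold change -2.15, SE 0.25), and Thbs1, an activator of latent TGF-β that was named after its values were seen, was up, having passed the filter through LPS, which set its direction. Only Twsg1, a BMP-binding protein, was tested of 8 extracellular antagonists (log2 fold change -0.32), and edgeR called 0 of 1, with 0 at an unadjusted p below 0.05 and 0 by DESeq2.

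SMAD inhibitors and regulators other than the members gave 5 calls of 12 tested of 15 listed, 4 up and 1 down, with a median of 0.53 (3 up and 2 down with scaling by library size). Up were Skil (log2 fold change 1.98, SE 0.21), a corepressor of SMAD complexes, and the ubiquitin ligases Nedd4l (1.69, SE 0.23) and Smurf1 (1.5, SE 0.25), along with the corepressor Tgif1, which was named after its values were seen. Wwp1, another ubiquitin ligase, was down (-1.64, SE 0.26). Of TGF-β and BMP target genes, 4 of 7 tested of 15 listed, 14 of them matched, were called, all up, with a median of 2.15. They included the cell cycle inhibitors Cdkn1a (log2 fold change 3.03, SE 0.26) and Cdkn2b (2.35, SE 0.31), and Junb, which was named after its values were seen.

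E proteins and other partners of Id proteins gave 3 calls of 5 tested of 7 listed, with a median of -0.36. Tcf12 was down from 99.6 and 114 CPM in control to 33.1 and 36.3 CPM in LPS (log2 fold change -1.59, SE 0.21), and the E protein gene Tcf3 was down with -1.10 (SE 0.36). The call of Tcf3 was lost with DESeq2, with the 4 groups fitted together, and without control replicate 1 (-1.06), control replicate 2 (-1.16) or LPS replicate 2 (-0.67). Ets2, an ETS factor, was up (1.83, SE 0.26).

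The list of microglial genes that depend on TGF-β had 10 called of 10 tested of 15 listed, with a median of -2.67. Among them Fcrls, Cx3cr1, Gpr34 and P2ry13 were near the filter in LPS and passed it through control, so that their direction was set by the filter. P2ry13, a purinergic receptor, went from 9.34 and 15.9 CPM in control to 0.875 and 1.01 CPM in LPS (log2 fold change -3.71, SE 0.44). Mef2c, a transcription factor, went from 95.5 and 111 CPM to 11.2 and 14.8 CPM (-2.94, SE 0.24), and Pros1, a ligand of receptors for dying cells, from 31.7 and 32.7 CPM to 4.37 and 5.70 CPM (-2.63, SE 0.28). With at least 10 counts in every library required, 6 genes of this list were tested and called, and without control replicate 2 there were 7 calls of 9 tested.

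**Figure D3:**
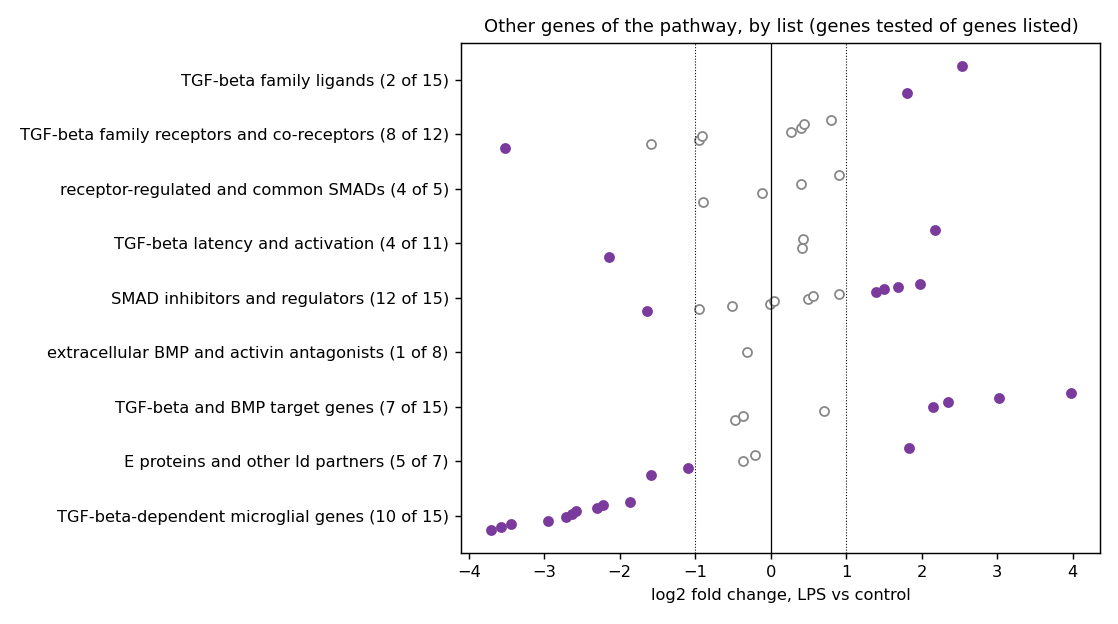
Log2 fold change of LPS against control (edgeR, 2 libraries per group) for the 53 tested genes of the 9 other pathway lists, 1 point per gene, with filled points for called genes and dotted lines at -1 and 1. P2ry13 lay at -3.71, Bambi at -3.52 and Cdkn1a at 3.03, in a contrast on which the members were selected.

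The same lists were counted in the co-treatments against LPS. For AGE+LPS, edgeR without a block called 0 of 48 tested, beside 0.796% of all genes, 9 had an unadjusted p below 0.05, DESeq2 called 1 (Cdkn1a), and 2 were called without LPS replicate 1, LPS replicate 2 or AGE+LPS replicate 2. The replicate block gave 3 calls, all down, beside 9.73% of all genes, so the count is no result about the lists. As above, the p-values with the block rest largely on spread borrowed across genes. Cdkn1a fell by 1.22 on the log2 scale (SE 0.11, adjusted p = 2.3e-17, over the alternatives to 0.0822, and 0.0615 without the block), from 130 and 95.7 CPM to 48.4 and 47.4 CPM, lower in 2 of 2 lanes. Mertk, a receptor for the uptake of dying cells, fell by 1.13 (SE 0.30, lower in 2 of 2 lanes, adjusted p = 0.0015 in edgeR with the block, to 0.634 over the alternatives), and the third was the complement gene C1qa, named after its values were seen.

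For FruArg+LPS against LPS, 0 of 48 were called by edgeR without a block, beside 0% of all genes, 5 had an unadjusted p below 0.05, and DESeq2 called 1, Gdf15. With the block, beside 6.35% of all genes, Gdf15 was the 1 call, rising by 1.51 (SE 0.18, adjusted p = 4.6e-10, over the alternatives to 0.402) from 154 and 86.9 CPM to 437 and 246 CPM, higher in 2 of 2 lanes, and it was called without LPS replicate 1 (1.96) or FruArg+LPS replicate 2 (1.86). Between the co-treatments edgeR called 0 of 45 with and without the block, beside 0.898% and 0% of all genes, 4 had an unadjusted p below 0.05, and DESeq2 called 0.

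Genes whose pattern was most like that of a member were sought among 9986 genes with a mean of at least 5 CPM, by Pearson r of log2 CPM over the 8 libraries. The libraries share 4 treatments and 2 lanes, so r is a description and no p is given. Id3 was closest to Rab20 (r = 0.995), Maff (0.991), Ninj1 (0.991), Kctd12 (0.991) and Nfkbiz (0.990). The closest to Id2 were Slco4a1 (r = 0.987) and Pmp22 (0.983), and to Smad7 they were Atp6v0d1 (0.986) and Capns1 (0.986). For Tgfb1 these were Polr2j (r = 0.973) and Ifitm2 (0.968), for Tgfbr1 Wnk1 (0.980) and Trps1 (0.972), and for Tgfbr2 Tacc1 (0.992) and Tspan14 (0.990). Smad3, at low counts, was closest to Snhg15 (r = 0.989) and Mtr (0.987), and Smad6 to Hsf1 (0.979) and Ndufs6 (0.977). No value is given for Id1, whose pattern rests on 1 count.

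Promoter sequence was read for the members to show which letters known from SMAD and E protein binding stand near their starts. RefSeq windows (GRCm38.p6) of 300 bases, from 250 before to 50 after a start, were found for 7 of the 9 members in 8 windows, of which Tgfbr1 has 2. Id1 and Smad7 had no window. On both strands, the SMAD-binding sequence GTCTG (reverse complement CAGAC) was in 3 of the 8 windows and in 49.6% of all 32851 windows, and the SMAD-binding palindrome GGCGCC was in 2 and in 11.9%. The E-box CAGCTG was in 2 of the 8 and in 16.3% of all windows, and the E-box CACGTG in 0 and in 7.15%. None of these motifs contains another. The windows of Tgfb1, Smad3 and Smad6 held no match. A match is a description of the letters and not a binding site.

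All matches in members are printed 5′ to 3′ on the strand of the gene, with the match in capitals and 11 bases on either side, to set the letters beside the levels of Id3, Id2, Tgfbr2 and Tgfbr1. Both Id3 matches lie in an exon, in annotated untranslated sequence of GENCODE M21, at chr4:136143644-136143670 and chr4:136143743-136143769, with the matches starting at -167 and -68 from the RefSeq start.
Id3 at -167: gtcctcggcgtCAGACcagcctaagga
Id3 at -68: gacccttggcgGTCTGttttgaataag
The Id2 matches lie in an intron on the minus strand, at chr12:25096272-25096299 and chr12:25096307-25096334.
Id2 at -196: atttgccacccCAGCTGggctctcgccc
Id2 at -231: caggccccctgGGCGCCcagcgcacact
For Tgfbr2, on the minus strand, chr9:116175331-116175358 lies in untranslated sequence of an exon and chr9:116175508-116175534 upstream of the gene.
Tgfbr2 at 16: gaggtcctgccCAGCTGttggcgaggag
Tgfbr2 at -160: aacttggagccCAGACttggcggggtg
For Tgfbr1, chr4:47352978-47353005 lies upstream of the gene and chr4:47386002-47386028, before a start within the gene, in an intron.
Tgfbr1 at -233: gctggagtaaaGGCGCCcagcggtgagg
Tgfbr1 at -203: ttcgaactcagCAGACagccccacggt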

How the data were processed

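The deposited values are counts of reads per Ensembl gene in 8 libraries, as whole numbers made by the authors, and all columns were used. Both the submitters' processing notes and the methods of the study name featureCounts and the GRCm38 build, and the methods also name fastx_toolkit and TopHat2. For differential expression the notes name edgeR, whereas the methods name DESeq2. Versions and the strand setting are not given in the sources used here. Replicates of each group differed with a chi-square per degree of freedom from 11.9 to 41.3, above sampling noise, so each was kept as a library of its own. Of 46078 genes, 45229 were matched by identifier to GENCODE M21, which gave symbols, positions and exon lengths, and no member overlaps another gene there.

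Every pair of groups had a fit of its own, on 4 libraries, in edgeR 4.0.16 (limma 3.58.1, R 4.3.3): filterByExpr, TMM normalization, the two-sided quasi-likelihood F-test and Benjamini-Hochberg adjustment over all genes tested. SE was taken from the F value. Levels used TMM factors over the 8 libraries. With 2 libraries in a group, permutation tests and tests for outlying libraries were not possible. Ratios for Id3 use counts and TMM-scaled library totals pooled over each group and carry exact counting intervals. Chosen after seeing the data, they were also taken with each library left out.

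The labels give the lane of each replicate number. The differences between replicate 2 and replicate 1 correlated between groups with r from 0.244 to 0.628 across 12873 genes, in every pair of groups, so the numbers were taken to pair the samples and blocked values stand beside the others where they change a call. Alternatives were the block, DESeq2 1.42.0, DESeq2-type (RLE) size factors, library size scaling, a lower filter (1 count in all) and a higher one (10 counts in every library), the 4 groups in a joint fit with and without the block, no minimum fold, and each library left out. The fits were tested on simulated data.

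The members and lists were chosen with earlier results of these data known. Named were all 9 members and, in each list, up to 3 called genes with the largest positive and 3 with the largest negative log2 fold change at a mean of at least 5 CPM, or those called with the block where none was called, plus the 5 genes most like Id3 and the 2 most like each other member. Some genes that the lists hold are not reported here by name. Likeness used log2 CPM with a prior count of 2. Sequences are from RefSeq. Python 3.11.15, pandas 2.3.3 and matplotlib 3.10.9 were used.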

Additional observations from a re-analysis of the deposited data

How the results depend on the processing

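Every comparison was recomputed with other scaling, tools, filters, fits and with each library left out, where the lone library is assumed to vary like the other group. Between LPS-exposed groups, 14 of the members' log2 fold changes reversed under an alternative and 8 passed the threshold newly. In LPS against control 11 moved by more than 1 SE, and of these Id2 (-0.19 with library size scaling) and Smad6 (0.46 without LPS replicate 2) changed sign. That scaling moved the median of all genes from 0.02 to -0.40, so the sign of Id2 is relative to the scaling. The other 319 log2 fold changes of members kept direction and side of the threshold between LPS-exposed groups, or stayed within 1 SE in LPS against control. Low counts limit Smad3 and Smad6. The causes were not tested.

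With the replicate block, 1199 genes and 1 member were called in AGE+LPS against LPS, 766 and 1 in FruArg+LPS against LPS, and 107 genes in FruArg+LPS against AGE+LPS. With the block and the 4 groups together these were 895 and 1, 853 and 1, and 151. In the pairwise fits the block changed no call of a member other than Smad7. Of the other pathway genes between LPS-exposed groups or in LPS against control, it changed in those fits only the calls of Cdkn1a, Mertk, C1qa, Gdf15 and Acvr2b. With the 4 groups together, the block also added calls of Smad3 in AGE+LPS against control and of Tcf3 in LPS against control. The log2 fold change of Smad3 there was -1.97 without the block and -1.96 with it. It is a description only, as the control libraries are those of the contrast that chose Id3.

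In AGE+LPS against LPS, DESeq2 called 529 genes, a filter of at least 1 count 927 and 1 member, the 4 groups together 376, and leaving out a library 349 to 646 with 0 to 1 members. In FruArg+LPS against LPS these were 194 by DESeq2, 503, 5, and 5 to 1549 with 0 to 1 members. In FruArg+LPS against AGE+LPS they were 40 with at least 1 count and 10 to 233 with a library left out. In LPS against control 1 member was called with at least 10 counts in each library.

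Reversed in AGE+LPS against LPS were Smad3 (-0.12; with a library left out -0.12 to 1.53) and Smad6 (-0.19; to 1.90) without LPS replicate 2, and Tgfbr1 (-0.048; to 0.27) without AGE+LPS replicate 2. Reversed in FruArg+LPS against LPS were Id3 (-0.070; to 1.93) without FruArg+LPS replicate 1 and Tgfbr1 without LPS replicate 1 (-0.068) or FruArg+LPS replicate 2 (-0.16; to 0.21). Reversed in FruArg+LPS against AGE+LPS were Id3 (-0.17), Smad6 (-0.081; to 0.82), Smad7 (-0.26; to 0.62) and Tgfbr1 (0.078) without AGE+LPS replicate 2, Id3 (-0.80; to 0.85), Tgfbr1 (0.093; from -0.28) and Tgfbr2 (-0.00085; to 0.64) without FruArg+LPS replicate 1, and Smad7 (-0.026) with library size scaling. Of the other pathway genes' log2 fold changes, 207 kept their side, 14 passed newly and 5 no longer passed, and of their counts of calls 430 stayed within 1.5 times and 50 did not.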
